A study of Homo sapiens with 14 samples.

Results

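Knockdown of EZH2 by siRNA was compared with a control siRNA in LNCaP, a human prostate cancer cell line that was grown from a lymph node metastasis and responds to androgen. The comparison used 4 of the 14 arrays of the series by their titles, 2 arrays of cells 60 h after transfection with si-EZH2 and 2 arrays of cells 60 h after transfection with si-Control, and no measured value entered that choice. Other groups, each of 2 arrays of the same line, are given beside it where they bear on a gene: si-EZH2 together with a plasmid for siRNA-resistant EZH2, wild type (EZH2sr) or with the T350A change (T350Asr), both for 60 h, and cells that received the solvent DMSO at 0.1% for 24 h with no transfection. TSA (trichostatin A, which blocks histone deacetylases, 5 uM) and Roscovitine (an inhibitor of cyclin-dependent kinases, 10 uM), both for 24 h, made up the rest of the series and entered the estimate of spread. All groups carried the line's own EZH2 gene, and the labels name 1 siRNA against EZH2. Whether the arrays of a group stem from separate cultures is not stated, and the p-values then cover only the spread between these samples, which may be technical.

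EZH2 is the methyltransferase of PRC2, a Polycomb complex that methylates lysine 27 of histone H3 and, with the subunits EED and SUZ12, keeps developmental genes silent. PRC1, a second Polycomb complex, reads that mark. EZH2 is abundant in dividing cells, is raised in advanced prostate cancer, and its transcription is driven by E2F factors along with other genes of DNA replication.

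Expression was read as the signal of Affymetrix probe sets, short sets of probes for 1 transcript, on the linear intensity scale the authors deposited. The median signal of an array ranged from 107 to 117. Signals under 50 made up 31.7% to 34.5% of an array, and there the 16 added before taking log2 understates a ratio. The differences below are si-EZH2 minus si-Control in log2(signal + 16), ± SE from 1 limma fit over all 14 arrays (n = 2 arrays a group), and a probe set was called at an adjusted p under 0.05 over the 41091 probe sets with 1 gene symbol. A gene is read through its probe set with the highest mean. Replicate 2 of Roscovitine and replicate 2 of T350Asr departed from their partners alike. Between these 2 differences r was 0.782 across 9887 genes, which are not independent replicates. Neither array belongs to the groups compared. The replicate difference of si-EZH2 had r = -0.337 with that of Roscovitine and -0.330 with that of T350Asr. For si-Control the same values were 0.0998 and 0.114. The prostate luminal character of the cells was borne out by markers: 13 of 13 measured prostate luminal markers read above 50 on all 4 arrays, with a median signal of 3256 in si-EZH2 and 3089 in si-Control, 0 were called, and KLK3, which encodes prostate-specific antigen, read 9832 and 9600.4 in si-EZH2, against 8927 and 9034 in si-Control. A signal above 50 is common: 4170 of 19775 genes had a mean under 50 over these 4 arrays, and the median over all genes was 244. That the line is LNCaP rests on the labels and was not tested. T-cell gene CD3D (1.00 and 1.85 in si-EZH2, against 3.76 and 1.00 in si-Control) and NKG7 of natural killer cells (1.00 and 1.00 in si-EZH2, against 1.00 and 2.47 in si-Control) were near the lowest signal in both groups. Not all leukocyte markers were that low: CD3E, also a T-cell gene, read 187.6 and 187.7 in si-EZH2, against 224.5 and 192.4 in si-Control. The median signal of the 12 measured leukocyte markers was 90.7 in si-EZH2 and 92.8 in si-Control. In such bulk RNA, fewer cells of a kind and less RNA per cell cannot be told apart.

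EZH2 itself fell most of all called genes. Its single probe set (EZH2, chromosome 7) read 392.5 and 393 in si-EZH2, against 1161 and 1221 in si-Control. Both si-EZH2 arrays lay far below both si-Control arrays, at 33.0% of the si-Control mean, a difference of -1.56 ± 0.08 (limma, adjusted p = 0.000148). EZH2 read 839 and 822 in EZH2sr and 806 and 826 in T350Asr, between si-EZH2 and si-Control, and both differed from si-Control in the same fit (-0.51, adjusted p = 0.00686, and -0.54, adjusted p = 0.0129). The arrays of DMSO cells, at 1099 and 1085, lay near si-Control. None of the 11 other PRC2 subunits was called, where 0.46% of all genes were called higher and 0.0708% lower. SUZ12, which PRC2 needs for stability, differed by 0.008, the H3K27me3-binding subunit EED by 0.18, the second catalytic subunit EZH1 by -0.14, and the histone chaperones RBBP4 and RBBP7 by -0.025 and 0.14. Among the accessory subunits JARID2 differed by 0.22, MTF2 by 0.19, PHF1 by 0.10, PHF19 by 0.022 and AEBP2 by 0.003. EPOP, an accessory subunit linked to elongin, came nearest to a call: it read 185 and 177 in si-EZH2, against 137 and 136 in si-Control (0.37 ± 0.07, limma, adjusted p = 0.0867), with both si-EZH2 arrays above. Of 16 PRC1 genes 0 rose and 0 fell. Their median was 0.10 beside 0.037 over all genes. It was 0.041 beside 0 over all genes after quantile normalization, and 0.061 beside -0.005 with each array at the same median. Both si-EZH2 arrays lay above both si-Control arrays for 11 of the 16, beside 32.2% of all genes, with RYBP (0.22 ± 0.07), PHC3 (0.20 ± 0.08) and RING1 (0.22 ± 0.09) among the 11.

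Over all 41091 probe sets limma called 160 higher (0.389%) and 29 lower (0.0706%) after EZH2 knockdown. Read through 1 probe set for each of 19775 genes, 91 genes rose (0.46%) and 14 fell (0.0708%), EZH2 included. Only 10 of the rises and 3 of the falls exceeded 1 on the log2 scale, and the smallest called difference was 0.38. Without adjustment, 3146 probe sets were higher and 1041 lower at p under 0.05. The excess of rises depended in part on how arrays were scaled: the share of higher among called genes was 86.7%, against 72.9% after quantile normalization (70 higher, 26 lower) and 75.3% with each array at the same median (61 higher, 20 lower), and it was 84.7%, 68.2% and 71.2% over probe sets. The number of calls leaned on each array of the comparison. Leaving out si-EZH2 replicate 1 gave 12 genes higher and 2 lower, leaving out si-EZH2 replicate 2 gave 9 and 1, leaving out si-Control replicate 1 gave 14 and 3, and leaving out si-Control replicate 2 gave 14 and 2, with the lone array left assumed to vary like the other groups. It also leaned on groups outside the comparison through the spread: 44 and 5 without either DMSO array, 52 and 6 without either TSA array, and 140 and 23 without either EZH2sr array. Over the 8 transfected arrays alone it was 4 and 1, and over the 4 arrays compared alone 0 and 0. All 105 called genes kept their sign in every one of these fits. Their si-EZH2 and si-Control arrays did not overlap, so leaving out arrays could not turn a sign. Only the 2 other scalings could have done so.

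**Figure D1:**
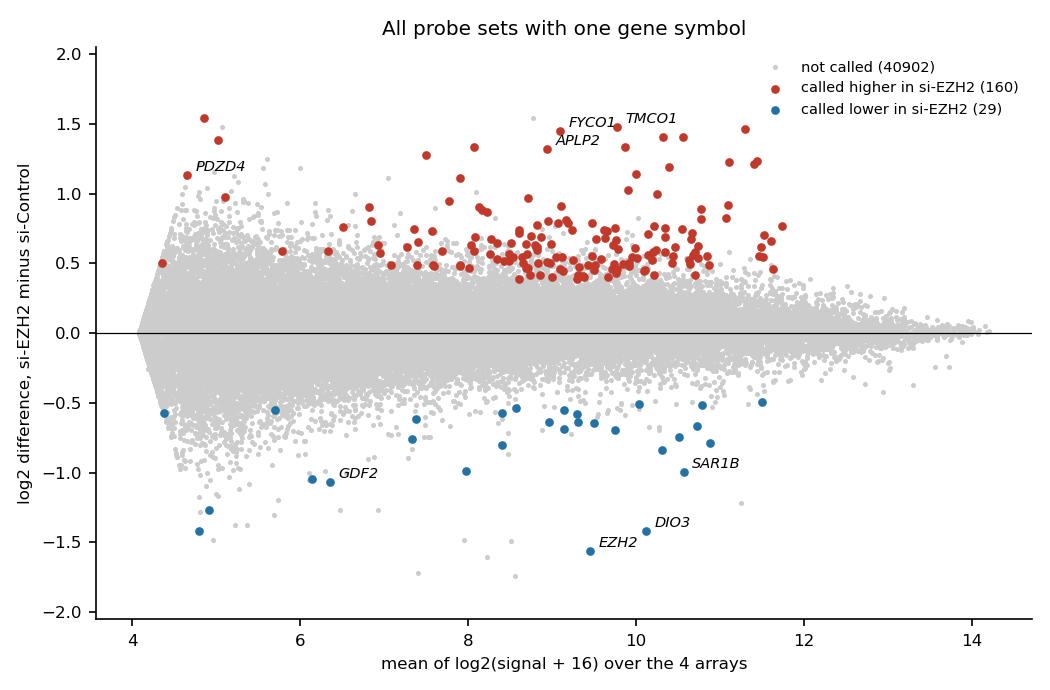
Log2 difference, si-EZH2 minus si-Control, of every probe set with 1 gene symbol (vertical axis) against its mean log2(signal + 16) over the 4 arrays (horizontal axis). Red points are the 160 called higher, blue points the 29 called lower and grey points those not called; 1 point lies outside the axis range of 2 log2 units and is not drawn.

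The largest rises were in genes of unlike roles, a calcium channel, an autophagosome adaptor, a pseudokinase and microtubule proteins among them. TMCO1, a calcium channel of the endoplasmic reticulum membrane (chromosome 1), read 4230.1 and 4090.3 in si-EZH2, against 1507 and 1488 in si-Control. It was the largest rise among the genes called through their strongest probe set, at 1.46 ± 0.08 (limma, adjusted p = 0.000276). FYCO1, which links autophagosomes and late endosomes to kinesin (chromosome 3), read 839 and 942 in si-EZH2, against 310.2 and 323 in si-Control (1.44 ± 0.10, adjusted p = 0.000582). STRADB, a pseudokinase partner of the kinase LKB1 (chromosome 2), read 1393 and 1549.8 in si-EZH2, against 566 and 584 in si-Control (1.33 ± 0.07, adjusted p = 0.000253). FAM8A1, a component of the endoplasmic reticulum degradation machinery (chromosome 6), read 1507 and 1511 in si-EZH2, against 669 and 681 in si-Control (1.14 ± 0.07, adjusted p = 0.000276). In each of these 4 genes the si-EZH2 arrays lie close together and the si-Control arrays lie at less than 50% of them. Untransfected DMSO cells also lay above si-Control in all 4. Their means were 4042 for TMCO1 (4160 in si-EZH2), 854 for FYCO1 (890), 1558 for STRADB (1471) and 1700 for FAM8A1 (1509).

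SLAIN2, a protein of growing microtubule ends (chromosome 4), read 1348 and 1353 in si-EZH2, against 644 and 666 in si-Control (1.03 ± 0.06, limma, adjusted p = 0.000280). RNF149, a membrane ubiquitin ligase (chromosome 2), read 1722 and 1674 in si-EZH2, against 861 and 828 in si-Control (0.99 ± 0.07, adjusted p = 0.00100). The zinc finger gene ZNF658 (chromosome 9) read 264 and 268 in si-EZH2, against 98.8 and 102 in si-Control (1.28 ± 0.10, adjusted p = 0.00148). These 3 genes, the 4 above, and EML1 (0.88, a microtubule-associated protein), MEA1 (0.72) and EZH2 were the 10 genes called in each of the 14 fits that left out 1 array.

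The other large rises were called less steadily. Only 4 of these 14 fits left out an array of the comparison. For an outside group, leaving out 1 array or its partner gives the same fit, so the 14 are not separate checks. PLAAT3, a phospholipase of lipid droplets and adipose tissue (chromosome 11), read 419 and 406 in si-EZH2, against 135 and 175 in si-Control (1.34 ± 0.14, limma, adjusted p = 0.00695). RTKN (chromosome 2) read 325 and 345 in si-EZH2, against 158 and 135 in si-Control (1.11 ± 0.12, adjusted p = 0.00888). Each of these 2 genes was called in 11 of the 14 fits, with a highest adjusted p of 0.0729 for PLAAT3 (lost without si-EZH2 replicate 1, si-EZH2 replicate 2 or si-Control replicate 1) and 0.0897 for RTKN (lost without si-EZH2 replicate 1, si-EZH2 replicate 2 or si-Control replicate 2). FNDC3A, a fibronectin type III domain protein (chromosome 13), read 2075 and 1960 in si-EZH2, against 912 and 838 in si-Control (1.19 ± 0.13, adjusted p = 0.00757). SLC25A22, the mitochondrial glutamate carrier (chromosome 11), read 534 and 605 in si-EZH2, against 272 and 295 in si-Control (0.97 ± 0.11, adjusted p = 0.0113). Both were called in 10 of the 14 fits and were lost without any single array of the comparison, with a highest adjusted p of 0.0832 for FNDC3A and 0.108 for SLC25A22. PDZD4, a PDZ domain gene (chromosome X), stands apart for its low level: it read 23.8 and 18.9 in si-EZH2, against 1.00 and 1.00 in si-Control (1.13 ± 0.18, adjusted p = 0.0400), so the size of its difference depends on the 16 added, and it was called in 4 of the 14 fits (highest adjusted p 0.236).

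**Figure D2:**
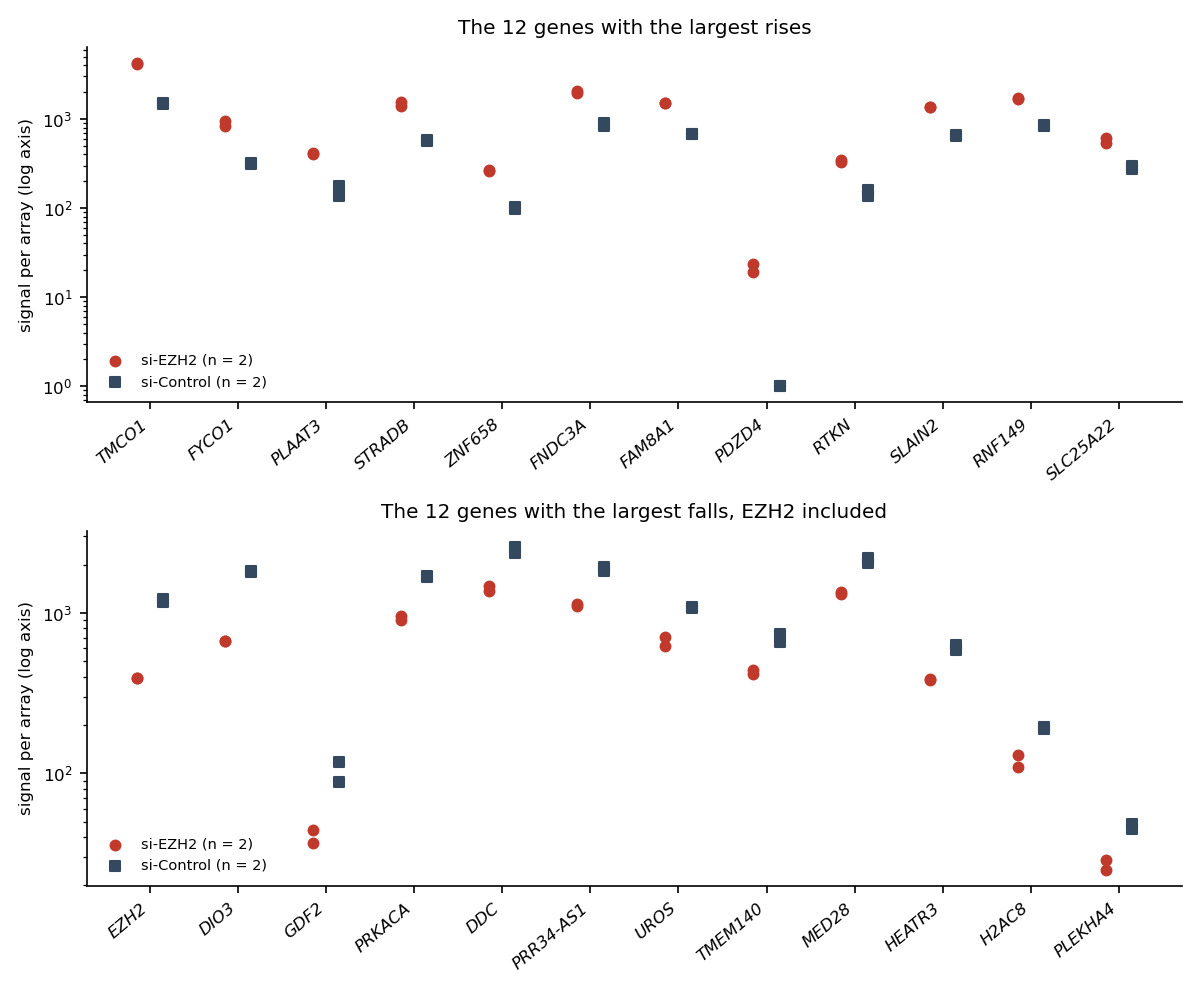
Signal on each array (log axis) of the 12 genes with the largest rises (upper panel) and the 12 with the largest falls, EZH2 included (lower panel). Red circles are the 2 si-EZH2 arrays and dark squares the 2 si-Control arrays. The 24 genes were chosen among those in which the 2 groups do not overlap. TMCO1 lies at 4230.1 and 4090.3 against 1507 and 1488, and PDZD4 has the lowest signals.

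Further probe sets of a gene read other parts of its transcripts on the same arrays, and they bore on how widely a rise extended. TMCO1 had 4 probe sets and all 4 were called, between 1.40 and 1.48. The 63 raised genes with more than 1 probe set had 138 further ones, of which 20 were called. Of these 138, 118 (85.5%) lay above 0, against 55.8% of the further probe sets of all genes. The 2 shares were taken at unlike levels, with a median signal of 276 for the 138 and 100 for those of all genes. Both probe sets were called for GALNT7, which starts mucin-type O-glycosylation (0.75 and 0.82), MLEC, a lectin of the endoplasmic reticulum (0.81 and 0.92), and MOV10, an RNA helicase (0.77 and 0.86). SLAIN2 had 4 of 7 called (0.25 to 1.03), and CCNY, a membrane-bound cyclin, 3 of 5 (0.44 to 0.79). FYCO1 and PLAAT3 differed between their probe sets, since the other one lay at 0.07 for FYCO1 and 0.007 for PLAAT3, and that of RTKN at 0.23; none of these was called.

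APLP2, a relative of the amyloid precursor protein, showed a split of that kind within 1 gene, and was chosen after its values were seen. It had 8 probe sets, all above 0. For 4 of them the difference was 1.21 to 1.32 and called, and for the other 4 it was 0.30 to 0.37 and not called, and the gene's strongest probe set was one of those not called (0.35, limma, adjusted p = 0.115). One called probe set of APLP2 read 4222 and 4241 in si-EZH2, against 1837 and 1752 in si-Control, while the strongest one had a mean of 4248 in si-EZH2, against 3335 in si-Control. Probe sets whose names end in _x_at may share probes with related transcripts.

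**Figure D3:**
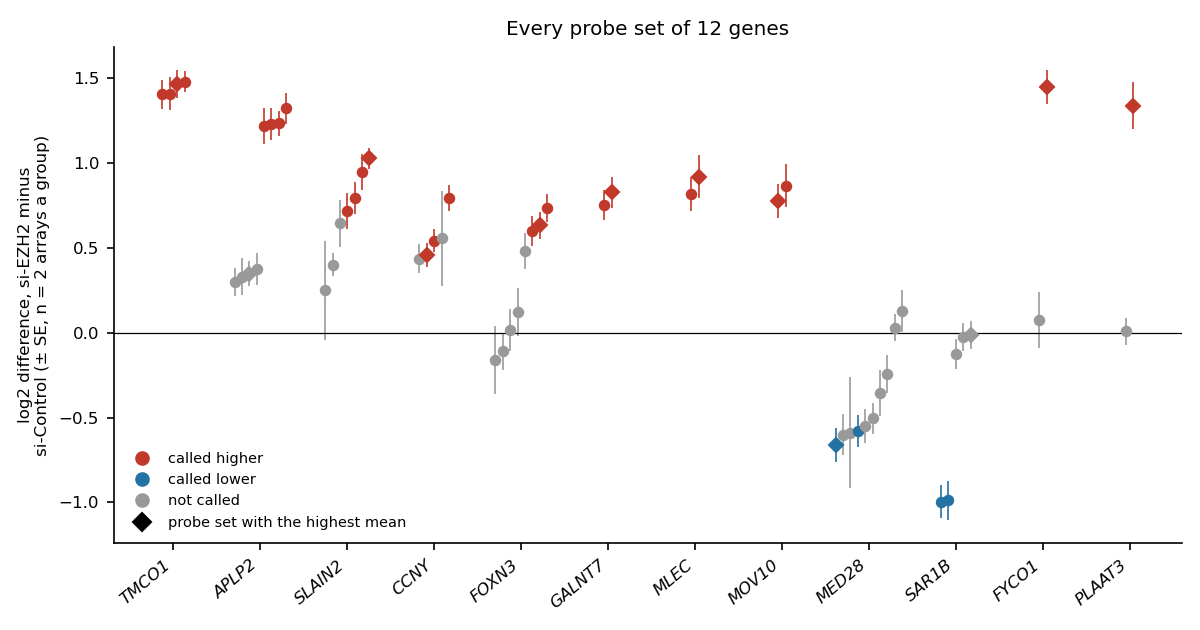
Log2 difference ± SE, si-EZH2 minus si-Control, of every probe set of 12 genes (n = 2 arrays a group; diamonds mark the probe set with the highest mean). Red is called higher, blue called lower and grey not called: all 4 of TMCO1 lie at 1.40 to 1.48, APLP2 splits into 4 at 1.21 to 1.32 and 4 at 0.30 to 0.37, and SAR1B has 2 of 5 called lower.

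The falls beside EZH2 were fewer, and covered a hormone-metabolising enzyme, a secreted ligand, a kinase subunit and enzymes of amine and haem synthesis. As with the largest rises, the largest falls were chosen among genes whose groups did not overlap. DIO3, the deiodinase that inactivates thyroid hormone, an imprinted gene (chromosome 14), read 669.6 and 664 in si-EZH2, against 1825 and 1790.5 in si-Control. The groups lie wide apart, at -1.42 ± 0.20 (limma, adjusted p = 0.0244). Its level in DMSO cells was lower still, at 285 and 289. GDF2, the ligand BMP9 (chromosome 10), read 44.5 and 36.6 in si-EZH2, against 118 and 88.1 in si-Control (-1.07 ± 0.15, adjusted p = 0.0253), a low signal in both groups. UROS, an enzyme of haem synthesis (chromosome 10), read 620.5 and 708 in si-EZH2, against 1093 and 1071 in si-Control (-0.69 ± 0.10, adjusted p = 0.0253). MED28, a subunit of the Mediator complex (chromosome 4), read 1314.5 and 1352 in si-EZH2, against 2211 and 2034 in si-Control (-0.66 ± 0.10, adjusted p = 0.0310). These 4 genes were called in 6 of the 14 fits that left out 1 array and were lost without either array of si-EZH2, si-Control, DMSO or TSA (highest adjusted p 0.176 for DIO3, 0.204 for GDF2, 0.173 for UROS and 0.212 for MED28).

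PRKACA, a catalytic subunit of protein kinase A (chromosome 19), read 957 and 901.5 in si-EZH2, against 1690.4 and 1662 in si-Control (-0.84 ± 0.11, limma, adjusted p = 0.0166). DDC, aromatic amino acid decarboxylase, which makes dopamine and serotonin (chromosome 7), read 1374 and 1468 in si-EZH2, against 2586 and 2358 in si-Control (-0.79 ± 0.09, adjusted p = 0.0118). The antisense transcript PRR34-AS1 (chromosome 22) read 1129 and 1097 in si-EZH2, against 1933 and 1812 in si-Control (-0.74 ± 0.09, adjusted p = 0.0118). In these 3 genes and in HEATR3, a HEAT repeat protein (chromosome 16, 382 and 387 in si-EZH2, against 631 and 585.5 in si-Control, -0.64 ± 0.08, adjusted p = 0.0129), the arrays of the groups did not overlap and the call was lost without any single array of the comparison (highest adjusted p 0.162 for PRKACA, 0.110 for DDC, 0.113 for PRR34-AS1 and 0.112 for HEATR3). TMEM140 (-0.69 ± 0.11, adjusted p = 0.0400) and PLEKHA4 (-0.55 ± 0.09, adjusted p = 0.0418) were called in 2 of the 14 fits (highest adjusted p 0.261 and 0.283), and H2AC8, described with the histones, in 0 of them.

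The falls also differed between probe sets. Of the 14 further probe sets of 5 lowered genes, 11 (78.6%) lay below 0, against 42.6% over all genes, and 1 was called. The median signal of these 14 was 162, beside 100 for the further probe sets of all genes. MED28 had 10 probe sets, 8 below 0 and 2 of them called, between -0.66 and 0.13. The second probe set of PRKACA lay at -0.12 and was not called. SAR1B, the GTPase that starts COPII vesicles, was called lower in 2 of its 5 probe sets, both at -0.99, and the others lay between -0.13 and -0.01; it was chosen after its values were seen. Its stronger called probe set read 1040.4 and 1075 in si-EZH2, against 2144 and 2103 in si-Control, with a mean of 1194 in EZH2sr, 1313 in T350Asr and 2069 in DMSO.

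Probe sets that do not stand for their gene added 69 calls higher and 15 lower, and those past 1 on the log2 scale in genes not yet named read under 90 on all 4 arrays. A probe set of SOS2, a guanine nucleotide exchange factor for Ras, read 24.97 and 43.5 in si-EZH2, against 1.02 and 1.00 in si-Control, while the strongest SOS2 probe set differed by 0.09. One of LILRB3, a leukocyte receptor, read 41.0 and 32.3 in si-EZH2, against 7.79 and 1.00 in si-Control, and its strongest probe set differed by -0.07. One of FOXP3, the regulatory T-cell factor, read 1.05 and 6.06 in si-EZH2, against 36.4 and 25.4 in si-Control, and one of FMN2, a formin, read 1.00 and 1.00 in si-EZH2, against 23.9 and 35.7 in si-Control. In both genes the strongest probe set was not called (-0.09 for FOXP3 and -0.50 for FMN2). One of STC1, the secreted stanniocalcin, read 36.3 and 29.8 in si-EZH2, against 82.6 and 87.4 in si-Control, and its strongest probe set differed by 0.20.

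Histone genes were lower as a list, though 1 of them passed the test. Of 44 measured histone genes 0 rose and 1 (H2AC8) fell, beside 0.46% and 0.0708% of all genes. Both si-EZH2 arrays lay below both si-Control arrays for 26 of the 44, beside 16.4% of all genes. Their median difference was -0.20 beside 0.037 over all genes, and it was -0.23 after quantile normalization and -0.24 with each array at the same median. H2AC8, an H2A gene of the chromosome 6 cluster, read 109 and 129 in si-EZH2, against 188 and 194 in si-Control (-0.62 ± 0.10, limma, adjusted p = 0.0497). Its groups do not overlap, but it was called in 0 of the 14 fits that left out 1 array (highest adjusted p 0.267). H2BC9 read 906 and 866 in si-EZH2, against 1255 and 1127 in si-Control (-0.42 ± 0.07, adjusted p = 0.0595), and H2BC5 read 1591 and 1636 in si-EZH2, against 2230.4 and 2183 in si-Control (-0.45 ± 0.08, adjusted p = 0.0622). A further probe set of H2BC5 was called (-0.51, adjusted p = 0.0450). Among the histone variants H2AX lay at 0.10, H2AZ1 at 0.04, MACROH2A1 at 0.03, H3-3A at -0.003 and the linker H1-10 at -0.28. Histone genes are near-identical copies whose probe sets may share signal, so single members are uncertain. The list also lay below si-Control in DMSO cells (median -0.35), EZH2sr (-0.20), T350Asr (-0.17) and Roscovitine (-0.34), and above it in TSA (0.26). Each of these medians is set against the same si-Control arrays as this comparison.

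Because replication-dependent histone genes carry a well-known promoter layout, the 250 bases before the RefSeq start are shown for the 3 members with the smallest p (GRCh38.p14, all on the plus strand, 5′ to 3′). The windows are chr6:26216671-26216920 for H2AC8, chr6:26251364-26251613 for H2BC9 and chr6:26157871-26158120 for H2BC5. Capitals mark the letters CCAAT (or ATTGG on the other strand), TATAAA (or TTTATA) and the octamer ATTTGCAT (or ATGCAAAT), found on either strand with no overlap among them.
H2AC8: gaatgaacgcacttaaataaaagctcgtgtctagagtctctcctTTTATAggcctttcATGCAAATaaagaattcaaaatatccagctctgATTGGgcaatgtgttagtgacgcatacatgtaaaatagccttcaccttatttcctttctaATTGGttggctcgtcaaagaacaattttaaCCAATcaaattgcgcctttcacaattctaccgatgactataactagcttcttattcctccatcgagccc
H2BC9: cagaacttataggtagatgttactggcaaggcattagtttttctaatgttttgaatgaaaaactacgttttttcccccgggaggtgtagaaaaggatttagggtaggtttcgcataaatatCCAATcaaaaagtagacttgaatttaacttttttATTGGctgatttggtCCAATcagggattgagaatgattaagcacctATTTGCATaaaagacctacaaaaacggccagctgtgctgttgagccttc
H2BC5: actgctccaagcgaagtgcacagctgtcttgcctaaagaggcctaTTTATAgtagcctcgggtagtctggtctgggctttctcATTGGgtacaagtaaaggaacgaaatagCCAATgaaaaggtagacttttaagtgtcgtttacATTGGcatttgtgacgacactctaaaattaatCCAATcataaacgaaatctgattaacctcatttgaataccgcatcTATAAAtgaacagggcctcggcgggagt
Over windows from 250 bases before to 50 after the start, CCAAT was in 36 of 42 histone windows (85.7%) against 34.6% of all 34943 windows, TATAAA in 27 (64.3%) against 11.6%, and the octamer in 15 (35.7%) against 1.77%. For the 26 histone genes with both si-EZH2 arrays below, CCAAT was in 21 (80.8%), TATAAA in 18 (69.2%) and the octamer in 13 (50%). A match is a description of these letters and not of binding.

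Genes of DNA replication and of mitosis lay higher in si-EZH2 as lists, again with few calls. Of 47 S phase genes 0 rose and 0 fell, where 0.46% of all genes rose and 0.0708% fell. Yet both si-EZH2 arrays lay above both si-Control arrays for 38 of the 47, beside 32.2% of all genes. The median was 0.22 (0.17 after quantile normalization and 0.18 with each array at the same median). MCM5, a subunit of the replicative helicase, read 1123 and 1317 in si-EZH2, against 818 and 747 in si-Control (0.63 ± 0.13, limma, adjusted p = 0.0925). GINS4, a subunit of the GINS complex of the same helicase, read 455 and 489.6 in si-EZH2, against 358 and 339 in si-Control (0.42 ± 0.09, adjusted p = 0.0966), and ORC1, of the origin recognition complex, read 223 and 251 in si-EZH2, against 173 and 166 in si-Control (0.45 ± 0.10, adjusted p = 0.121). RRM2, the ribonucleotide reductase subunit, differed by 0.014. Of 40 genes of G2 and mitosis 1 rose and 0 fell, both si-EZH2 arrays lay above for 35, and the median was 0.18 (0.12 and 0.14 under the same scalings). The gene that rose was ECT2, the exchange factor that starts cytokinesis, at 1905 and 1871 in si-EZH2, against 1291 and 1333 in si-Control (0.52 ± 0.09, adjusted p = 0.0475). It was called in 2 of the 14 fits that left out 1 array (highest adjusted p 0.275). TTK, a spindle checkpoint kinase, lay just outside the threshold, at 1152 and 1069 in si-EZH2, against 736 and 799.8 in si-Control (0.52 ± 0.09, adjusted p = 0.0528), and MKI67, the proliferation marker Ki-67, did not follow, at 315 and 331 in si-EZH2, against 340 and 329 in si-Control.

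These lists also moved with the transfected and untransfected state. Relative to si-Control the S phase median was 0.22 in si-EZH2, -0.24 in EZH2sr, 0.11 in T350Asr and 0.60 in DMSO, and the G2 and mitosis median was 0.18 in si-EZH2, -0.46 in EZH2sr, -0.12 in T350Asr and 0.85 in DMSO. All these differences share the si-Control arrays, and DMSO cells differ in time and handling as well. Cell cycle state as a part of any single gene's difference was not tested.

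E2F factors bind many replication promoters, so the promoter windows of the S phase list were searched for the E2F letters TTTGGCGC (or GCGCCAAA on the other strand), which 9 of 42 windows held (21.4%) against 0.65% of all windows, and 6 of the 33 windows of members with both si-EZH2 arrays above (18.2%). The 250 bases before the start are shown for the 2 members with the smallest p whose arrays were all above and whose match lay before the start: POLA1, the catalytic subunit of DNA polymerase alpha (chrX:24693668-24693917, plus strand), and DTL, a substrate receptor of the CUL4 ubiquitin ligase (chr1:212035498-212035747, plus strand), both in GRCh38.p14. Capitals mark the match.
POLA1: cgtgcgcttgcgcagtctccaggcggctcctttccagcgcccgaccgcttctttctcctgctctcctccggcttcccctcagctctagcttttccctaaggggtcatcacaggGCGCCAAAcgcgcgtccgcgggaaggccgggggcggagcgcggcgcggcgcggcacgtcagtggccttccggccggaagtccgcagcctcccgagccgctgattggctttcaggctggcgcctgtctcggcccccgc
DTL: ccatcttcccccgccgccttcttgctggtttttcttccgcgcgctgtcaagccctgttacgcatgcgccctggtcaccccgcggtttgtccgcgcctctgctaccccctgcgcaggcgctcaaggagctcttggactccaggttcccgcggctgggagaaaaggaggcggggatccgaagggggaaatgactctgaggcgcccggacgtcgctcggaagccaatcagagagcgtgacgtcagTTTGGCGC
POLA1 read 434 and 456 in si-EZH2, against 337 and 367 in si-Control (0.33 ± 0.10, limma, adjusted p = 0.288), and DTL read 1224 and 1217 in si-EZH2, against 869 and 834 in si-Control (0.51 ± 0.20, adjusted p = 0.406). Neither was called.

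**Figure D4:**
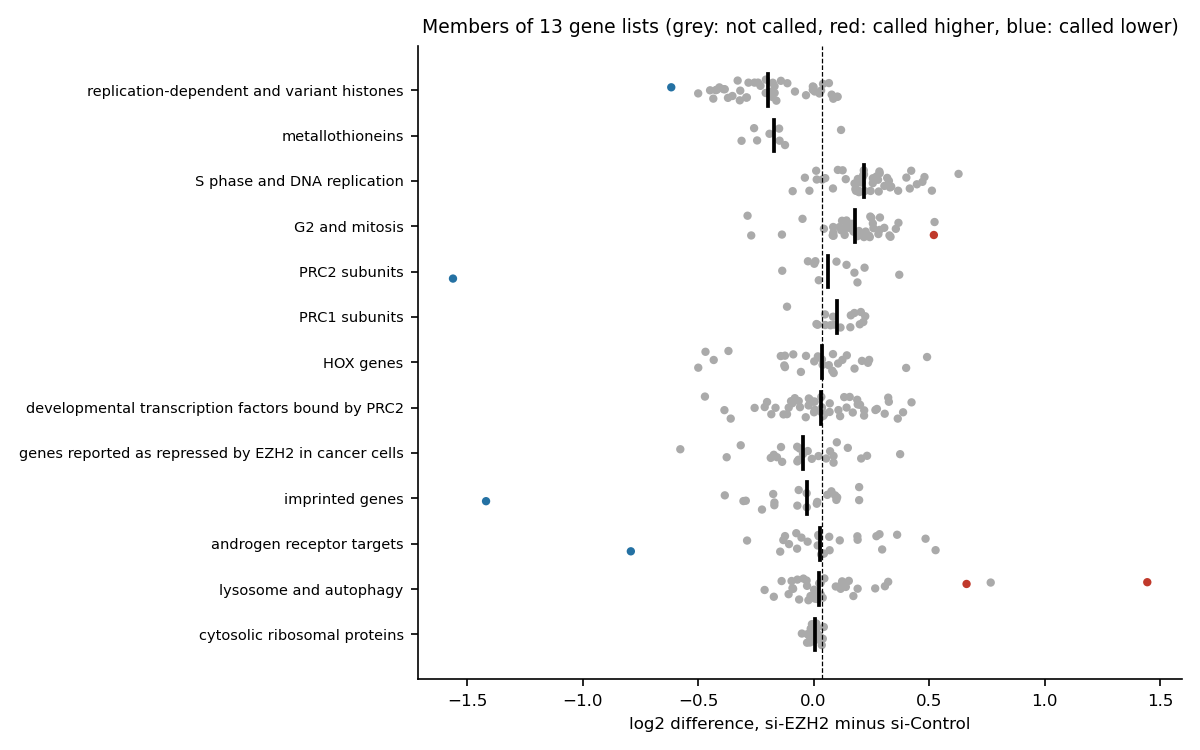
Log2 difference, si-EZH2 minus si-Control, of each measured member of 13 gene lists (1 point a gene; black bars are list medians and the dashed line is the median of all genes, 0.037). Histones lie left of the line (median -0.20), S phase (0.22) and G2 and mitosis (0.18) to its right, and HOX genes and developmental factors lie about it.

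HOX genes and other developmental regulators are genes that PRC2 is known to hold silent, and none of them was called at 60 h through its strongest probe set. Over all genes 0.46% were called higher and 0.0708% lower, so few calls would be met in lists of this size. Of 28 HOX genes, the body-axis regulators that are the classic Polycomb targets, 0 rose and 0 fell, with a median of 0.038, and both si-EZH2 arrays lay above in 8 and below in 5, beside 32.2% and 16.4% of all genes. HOXC13 read 268 and 261 in si-EZH2, against 183 and 184 in si-Control (0.49 ± 0.18, limma, adjusted p = 0.367), whereas HOXB1, at 22.2 and 31.8 in si-EZH2, against 42.7 and 46.2 in si-Control, lay the other way (-0.50 ± 0.16, adjusted p = 0.286). Of 52 transcription factors of development that PRC2 occupies in embryonic stem cells 0 rose and 0 fell, with a median of 0.033, with EN2 at -0.47 ± 0.15 and SIX2 at 0.39 ± 0.14. Many of these genes had low signals, where the arrays resolve little. With each array at the same median these list medians turn to the other side of 0 (-0.004 for HOX genes and -0.008 for the developmental factors), as does that of HOX genes after quantile normalization (-0.003). The median over all genes moved alike, from 0.037 to -0.005 with each array at the same median and to 0 after quantile normalization.

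Of 25 genes that EZH2 is reported to repress in cancer, 0 rose and 0 fell through their strongest probe sets, where 0.46% of all genes rose and 0.0708% fell. The median of the 25 was -0.05. IGFBP3, which binds insulin-like growth factors, was lower rather than higher: 598 and 589.99 in si-EZH2, against 939.8 and 851 in si-Control (-0.58 ± 0.11, limma, adjusted p = 0.0720). Its second probe set fell, at 248 and 235 in si-EZH2, against 458 and 409 in si-Control (-0.80, adjusted p = 0.0389). BMPR1B, a bone morphogenetic protein receptor, lay on the other side at 934 and 958 in si-EZH2, against 752 and 701 in si-Control (0.37 ± 0.09, adjusted p = 0.174). FBXO32, a muscle ubiquitin ligase subunit, differed by -0.38 ± 0.09 and TIMP2, an inhibitor of metalloproteinases, by 0.21 ± 0.08, neither called. Of 21 imprinted genes 0 rose and 1 fell, DIO3 being that gene, and GRB10 (-0.30 ± 0.10) and PHLDA2 (-0.22 ± 0.11) were not called.

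Among 26 androgen receptor targets, the programme by which LNCaP cells are usually judged, 0 rose and 1 fell (DDC), where 0.46% of all genes rose and 0.0708% fell, so that few calls would be met in a list of this size. The median was 0.027. Both si-EZH2 arrays lay above both si-Control arrays in 11 and below in 8, beside 32.2% and 16.4% of all genes. KLK2, a kallikrein, read 3503 and 3845 in si-EZH2, against 2516 and 2724 in si-Control (0.48 ± 0.21, limma, adjusted p = 0.482), and FKBP5, a chaperone of steroid receptors, read 3064 and 3230.1 in si-EZH2, against 2110.4 and 2245 in si-Control (0.53 ± 0.15, adjusted p = 0.227). Both si-EZH2 arrays were above in both genes, without a call. Of 38 lysosome and autophagy genes 2 rose and 0 fell, namely FYCO1 and LAMP2, a lysosomal membrane protein, which read 3965 and 3823 in si-EZH2, against 2406.5 and 2504 in si-Control (0.66 ± 0.07, adjusted p = 0.00624). LAMP2 was called in 11 of the 14 fits (highest adjusted p 0.0688), and the list's median was 0.023, beside 0.037 over all genes, of which 0.46% rose and 0.0708% fell.

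Metallothioneins, which bind zinc and copper, had both si-EZH2 arrays below in 7 of 8 genes, beside 16.4% of all genes, with 0 called and a median of -0.17 (-0.24 after quantile normalization and -0.21 with each array at the same median); MT2A read 3708 and 3740.2 in si-EZH2, against 4627 and 4290.1 in si-Control (-0.26 ± 0.08, limma, adjusted p = 0.244). Of 30 genes known to rise with HDAC inhibitors 0 rose and 0 fell (median -0.12), and this list shares histone and metallothionein genes with those above. Among genes of the unfolded protein response, 0 of 31 were called, CREB3L2 (0.50 ± 0.09, adjusted p = 0.0543) and the stress sensor ERN1 (0.35 ± 0.07, adjusted p = 0.0976) coming nearest. Of 38 short-lived transcripts 0 were called, and ZFP36L1, which destabilises AU-rich mRNAs, came nearest at 1409 and 1328 in si-EZH2, against 757 and 775 in si-Control (0.82 ± 0.15, adjusted p = 0.0672). In 30 genes of BMP signalling the single call was the fall of GDF2, in 26 of protein kinase A signalling that of PRKACA, and in 29 neuronal genes that of DDC. In the same fit 0.46% of all genes were called higher and 0.0708% lower.

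No member was called among 25 p53 targets, 39 interferon-stimulated genes, 23 NF-kappaB targets, 22 cyclins and CDK genes, 31 apoptosis regulators, 29 hypoxia and glycolysis genes, 19 of cholesterol synthesis, 14 of fatty acid synthesis, 18 chaperones, 29 epithelial and 26 mesenchymal genes. Their medians ran from -0.05 (cyclins and CDK genes) to 0.12 (mesenchymal genes). Over all genes 0.46% were called higher and 0.0708% lower, so few calls would be met in lists of these sizes. Cytosolic ribosomal proteins were the most even, all 24 between -0.05 and 0.04. Of 12 leukocyte, 15 fibroblast and endothelial and 13 androgen-independent prostate line markers 0 were called. Among 425 genes with a numbered ZNF symbol, a list set up after the data were examined, 3 rose (0.706%) and 0 fell, beside 0.46% and 0.0708% of all genes. Both si-EZH2 arrays lay above in 197 (46.4%) and below in 48 (11.3%), beside 32.2% and 16.4% of all genes. The median was 0.098 beside 0.037 over all genes, and after quantile normalization it was 0.044 beside 0. The 3 were ZNF658, given above, ZNF738 (0.79) and ZNF684 (0.76).

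The called genes had been chosen for their difference from si-Control, so their levels in the other groups, all set against those same si-Control arrays, are given side by side without a test. For the 91 genes called higher the median difference to si-Control was 0.59 in si-EZH2, 0.37 in EZH2sr, 0.46 in T350Asr and 0.55 in DMSO. TMCO1 read 4061 and 3928 in EZH2sr, 3967 and 4449.6 in T350Asr, and 3926 and 4159 in DMSO, so that si-Control was the low group. STRADB, at 1521 and 1595 in DMSO, overlapped its si-EZH2 values, and SLAIN2, at 1390.2 and 1388, lay just above its own. ZNF658 lay between, at 148 and 156 in EZH2sr and 227 and 237 in DMSO. FNDC3A was highest in EZH2sr, at 2942 and 2256, and RTKN in T350Asr, at 635 and 497. In DMSO cells RTKN, FAM8A1 and SLC25A22 lay above their si-EZH2 arrays, and FYCO1 lay between its own. PLAAT3, FNDC3A, RNF149 and PDZD4 lay below theirs. The part of a low si-Control level in these rises was not tested.

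For the 14 genes called lower, EZH2 included, it was -0.69 in si-EZH2, -0.62 in EZH2sr, -0.59 in T350Asr and -0.15 in DMSO, where the quartiles were -0.85 and -0.05. PRKACA, at 865 and 844 in EZH2sr and 789 and 976 in T350Asr, stayed near its si-EZH2 level, and at 2055 and 1964 in DMSO it lay above si-Control. HEATR3, at 258 and 264 in EZH2sr and 312 and 317 in T350Asr, lay below its si-EZH2 level, with 824 and 840.05 in DMSO. UROS, PRR34-AS1 and MED28 were near si-Control in DMSO (-0.03, -0.09 and -0.01). DDC and TMEM140 were lower than si-Control in DMSO as well (-0.83 and -1.04). The add-back groups carry the same siRNA and differ from si-EZH2 in the plasmid, so that the part of the siRNA and of EZH2 loss in these differences was not tested.

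**Figure D5:**
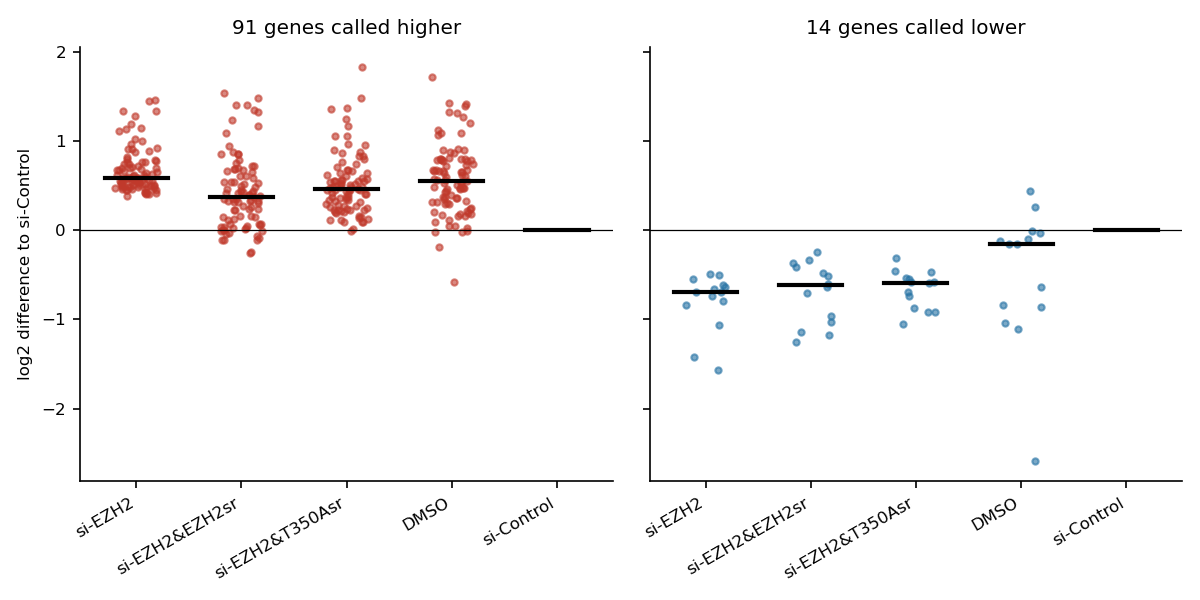
Difference to the si-Control mean in log2(signal + 16) of the 91 genes called higher (left) and the 14 called lower (right), by group; 1 point a gene, bars are medians, and si-Control is 0 by construction. The raised genes have medians of 0.59, 0.37, 0.46 and 0.55 from left to right and the lowered genes -0.69, -0.62, -0.59 and -0.15.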

How the data were processed

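RNA of 14 samples of LNCaP cells was hybridised to 14 arrays, and the authors deposited linear intensity values of 54613 probe sets. How they were summarized and scaled is not given in the sources. A second deposited table held the same intensity values for 7022 probe sets (98308 of 98308 equal within 0.01) and was not used further. Probe sets were named by the platform's annotation, with symbols updated by gene identifier: 41091 carried 1 symbol (41037 matched, 54 kept), 1801 several and 11721 none. Values were taken as log2(signal + 16) and fitted with limma 3.58.1 in R 4.3.3 (lmFit, contrasts.fit, eBayes) as 7 group means (7 residual and 2.05 prior degrees of freedom), with the contrast si-EZH2 minus si-Control and Benjamini-Hochberg adjustment over 41091 probe sets. A gene is represented by its probe set with the highest mean (19775 genes). The number of arrays limits the precision. The 13522 other probe sets were fitted apart.

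Genes were named by rule: EZH2 and the PRC2 subunits, the 12 largest called rises and falls without overlap, and up to 4 members of each list with the smallest p; exceptions are stated. The members, the lists and the tests were chosen with earlier results of these data known. The main fit used no block for replicate number. The replicate differences of si-EZH2 and si-Control had r = -0.208, and r ran from -0.337 to 0.782 over all pairs of groups. Such correlations cannot decide whether arrays of equal number were handled together, which was not tested. A fit with that block also called 71 of the 105 called genes. The block leaves the differences themselves unchanged, so that no sign could turn. The steps were tested on simulated data. Promoter windows are from RefSeq (250 bases before to 50 after the start). Alternatives were other scalings, pseudocounts, filters, array subsets, a replicate block, an intensity trend, gene means and leaving out arrays. Tables used pandas 2.3.3 and numpy 2.4.6 in Python 3.11.15, figures matplotlib 3.10.9.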

Additional observations from a re-analysis of the deposited data

How the results depend on the processing

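The number of calls moved widely between settings, while all 105 called genes kept their sign in every fit that tested them. Only fits with the arrays rescaled could have turned a sign. In each called gene the 2 groups did not overlap, and the other fits keep that order. Of 4130 comparisons over the 154 named genes other than EZH2, called or not, 3872 stayed on their side of the threshold, 200 lost the call, 58 gained one and 0 of the called values turned. Against 160 probe sets higher and 29 lower, and 91 genes higher and 14 lower, the counts were 488, 75, 292 and 38 with only the probe sets of higher mean signal, 310, 58, 181 and 29 with a pseudocount of 64, and 381, 80, 239 and 42 with an intensity trend and robust prior. They were 8, 1, 4 and 1 over the 8 transfected arrays and 0, 0, 0 and 0 over the 4 arrays compared, where EZH2 kept its difference of -1.56 with an adjusted p of 0.257 (limma, 2 residual degrees of freedom). Quantile normalization gave 55 probe sets and 26 genes lower, each array at the same median 104 probe sets higher, and the adjustment over 1 probe set per gene 25 genes lower. With the replicate number as a block, 103 probe sets were higher. Without Roscovitine replicate 2 and T350Asr replicate 2, chosen after seeing the data, 16 probe sets were lower. Fits that left out 1 array each gave 22 to 230 probe sets higher and 1 to 44 lower, 9 to 140 genes higher and 1 to 23 lower, and -1.60 to -1.52 for EZH2 (highest adjusted p 0.00587). The causes of these shifts in the counts were not tested. Below a signal of 50, which held 4170 of 19775 genes, differences are poorly resolved.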

Other observations

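The 13522 probe sets with several symbols or none, fitted apart with limma, gave 0 calls higher and 0 lower; 471 were higher and 282 lower at an unadjusted p under 0.05, and the smallest adjusted p was 0.116.

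A few single values stand far from every other array. A probe set of SYNJ2, a phosphoinositide phosphatase, read 109943 on si-EZH2 replicate 2, where the next highest of the 14 arrays read 143, and its log2 difference of 5.24 was not called (limma, adjusted p = 0.502). An unnamed probe set read 1570775 on si-Control replicate 1, where the next highest array read 100.09. Leaving out these probe sets changed none of the 4 counts of calls.

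The following genes lie outside the rule for naming and were chosen after their values were seen. CDK8, the Mediator kinase, read 1227 and 1241 in si-EZH2, against 837 and 769 in si-Control (0.61 ± 0.08, limma, adjusted p = 0.0185). TGFBR1, the type I receptor of TGF-beta, read 1588 and 1563 in si-EZH2, against 1064 and 1029 in si-Control (0.58 ± 0.08, adjusted p = 0.0205), and RICTOR, the defining subunit of mTORC2, read 831 and 826 in si-EZH2, against 598 and 608 in si-Control (0.45 ± 0.07, adjusted p = 0.0320). NUDT21, a factor of mRNA 3′ end processing, read 3600.4 and 3494 in si-EZH2, against 2316 and 2309 in si-Control (0.61 ± 0.08, adjusted p = 0.0135), CNOT6, a deadenylase subunit, differed by 0.55 ± 0.07 and MBNL3, a splicing factor, by 0.91 ± 0.10. In none of these genes did the 2 groups overlap, which held for all 105 called genes. Both si-EZH2 arrays lay above both si-Control arrays in 32.2% of all genes. Of the 14 fits that left out 1 array, MBNL3 was called in 12, TGFBR1, NUDT21 and CNOT6 in 10, CDK8 in 8 and RICTOR in 6, and each was lost without either si-EZH2 array (highest adjusted p from 0.0860 for MBNL3 to 0.205 for RICTOR). H2BC12L, an H2B gene outside the histone list, fell, at 2350.5 and 2496 in si-EZH2, against 3582 and 3253 in si-Control (-0.49 ± 0.07, adjusted p = 0.0304), and was called in 6 of those fits (highest adjusted p 0.202).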
